A study of Mus musculus with 17 samples.

Results

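Lipoprotein lipase and the genes that set its activity were followed in mouse liver and liver tumor by RNA-seq. The group held 8 genes, chosen by symbol and found in both gene tables: Lpl, Lipc, Lipg, Apoc2, Apoa5, Gpihbp1, Angptl4 and Vldlr. They are 8 of the 19151 genes listed for the high-fat diet (HFD) and 8 of the 24233 listed for the Western diet (WD).

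The study deleted NgBR (gene symbol Nus1), a subunit of the enzyme that makes dolichol for protein glycosylation, and asked what its loss does to the fat-loaded liver. Livers came from WT mice (n = 4) and liver-specific NgBR KO mice, called N-LKO (n = 4), after 16 weeks of HFD, and from WT (n = 3) and N-LKO mice (n = 3) after 16 weeks of WD, a diet high in fat and cholesterol. The remaining group was tumor from N-LKO mice on WD (n = 3). Per the study's methods, N-LKO mice combined albumin-Cre, which acts in hepatocytes, with NgBR loxP alleles on a C57BL6 background. The mice were male and ate chow for 8 weeks before the diets. Ages at collection, and whether WT mice carried loxP alleles, are not given in the sources used here. The titles number the libraries of a group as biological replicates. Whether a tumor and a liver came from the same mouse is not stated. HFD and WD livers stand in separate tables, so no level was compared across diets.

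Lipoprotein lipase cuts the triglyceride of chylomicrons and very low density lipoprotein (VLDL) at the capillary wall, so that tissues can take up the fatty acids. Muscle, fat and macrophages are its main adult sources, and adult hepatocytes normally make little of it. Hepatic lipase (Lipc), in contrast, is a hepatocyte product. The liver also secretes most of the cofactors that travel on the particles and switch lipoprotein lipase on or off in other tissues.

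The promoters of the secreted factors are shown because Apoc2 and Lipc passed a test below and Apoa5 is the most abundant member. RefSeq promoter windows (GRCm38.p6, 250 bases before to 50 after a start site) matched 4 of the 8 members, Lipc, Apoc2, Apoa5 and Vldlr. The windows are given 5′ to 3′ on the gene's strand. Capitals mark the letters searched on both strands: AGGTCA, a nuclear receptor half-site, GTTAAT, a half-site for HNF1, the E-box CACGTG, and the TATA box TATAAA. None of these overlap one another in the windows printed.
Apoc2, chr7:19677892-19678191, minus strand: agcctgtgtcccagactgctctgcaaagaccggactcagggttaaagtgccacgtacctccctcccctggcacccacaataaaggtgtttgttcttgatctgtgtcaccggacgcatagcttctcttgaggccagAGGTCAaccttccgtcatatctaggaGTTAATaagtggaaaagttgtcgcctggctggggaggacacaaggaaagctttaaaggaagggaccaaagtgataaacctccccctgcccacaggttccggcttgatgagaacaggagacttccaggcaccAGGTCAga
Apoa5, chr9:46268358-46268657, plus strand: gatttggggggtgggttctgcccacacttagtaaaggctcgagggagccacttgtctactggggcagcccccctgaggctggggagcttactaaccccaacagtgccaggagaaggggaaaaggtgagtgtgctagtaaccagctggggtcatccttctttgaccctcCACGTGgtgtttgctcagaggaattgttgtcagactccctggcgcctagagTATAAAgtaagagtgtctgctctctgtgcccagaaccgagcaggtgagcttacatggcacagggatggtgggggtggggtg
Lipc, chr9:70934759-70935058, minus strand: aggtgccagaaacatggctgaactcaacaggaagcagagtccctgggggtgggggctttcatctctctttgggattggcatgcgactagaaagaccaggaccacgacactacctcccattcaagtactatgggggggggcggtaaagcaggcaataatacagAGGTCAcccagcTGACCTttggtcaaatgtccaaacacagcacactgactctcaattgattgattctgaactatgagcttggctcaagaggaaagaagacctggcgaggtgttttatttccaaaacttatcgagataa

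The Apoc2 window holds AGGTCA at -115 and 43 and GTTAAT at -89, counted from the start site to the first base of the match. The Lipc window holds AGGTCA on the gene's strand at -88 and on the opposite strand at -76, where it reads TGACCT, and lies inside the annotated gene. The Apoa5 window shown is the first of 2 that overlap. A second Lipc window, at chr9:70952172-70952471 beside the 5′ end of the annotated gene, held none of these letters. In the Apoa5 window CACGTG begins at -82 and TATAAA at -31. Of the 32851 RefSeq promoter windows, 16.3% hold AGGTCA, 7.1% GTTAAT, 7.15% CACGTG and 13.6% TATAAA. The matches are descriptions of the letters only.

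Positions are from the GENCODE M21 annotation of GRCm38. Lpl (ENSMUSG00000015568.16) lies at chr8:68880491-68907448 on the plus strand with 10 exons in the transcript used for its length, Lipc (ENSMUSG00000032207.10) at chr9:70798128-70952226 on the minus strand with 9 exons, and Lipg (ENSMUSG00000053846.5) on chromosome 18 with 10 exons. Apoc2 (ENSMUSG00000002992.17) lies at chr7:19671579-19677941 on the minus strand with 5 exons, Apoa5 (ENSMUSG00000032079.12) at chr9:46268633-46271919 on the plus strand with 4 exons, and Gpihbp1 (ENSMUSG00000022579.10) at chr15:75596628-75599481 on the plus strand with 4 exons. Angptl4 (ENSMUSG00000002289.16) lies at chr17:33773750-33781830 on the minus strand with 7 exons, and Vldlr (ENSMUSG00000024924.14) at chr19:27216484-27254231 on the plus strand with 19 exons.

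Library totals ran from 9096110 to 12215784 estimated counts under HFD and from 15494731 to 20200618 under WD. Nus1, the deleted gene, ranged from 82.4 to 96.0 counts per 1000000 (CPM) in WT under HFD and from 29.3 to 37.9 CPM in N-LKO. The WD range was 88.1 to 98.8 CPM for WT, 41.7 to 51.1 CPM for N-LKO and 28.9 to 43.9 CPM for tumor. Every N-LKO library was thus below every WT library of its diet, as labelled. Hepatocyte markers were abundant in all libraries, with a summed level from 33677 to 76624 CPM over the 7 of 8 markers listed. Some WD libraries stood apart in their marker sums. Tumor replicate 1 had 432 CPM of 7 Kupffer cell markers, against 260 and 158.5 CPM in the other tumors and 436 to 518.5 CPM in N-LKO livers. WT liver replicate 2 had a summed level of 58.7 CPM for 8 recruited macrophage markers, against 211 and 243 CPM in the other WT livers. Tumor replicate 2 had 101.8 CPM of skeletal and cardiac muscle markers, against 0.70 and 0.88 CPM in the other tumors and at most 1.04 CPM in the WD livers.

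Per length, Apoa5 and Apoc2 stood far above the lipases in WT liver, while the inhibitor Angptl4 lay below Lipc. In the following levels CPM was divided by the transcript's length in kilobases. Under HFD, WT livers gave 305 ± 76.4 CPM per kb (SD, n = 4) for Apoa5, 139 ± 22.7 for Apoc2, 53.4 ± 6.33 for Lipc, 29.7 ± 8.91 for Angptl4, 6.31 ± 1.81 for Lpl, 5.09 ± 2.00 for Lipg, 3.75 ± 0.61 for Gpihbp1 and 0.77 ± 0.20 for Vldlr. The neighbouring levels of Lpl, Lipg and Gpihbp1 did not differ beyond their SDs. Under WD, WT livers (n = 3) gave 384.1 ± 116.4 CPM per kb for Apoa5, 245 ± 49.3 for Apoc2, 43.5 ± 4.54 for Lipc, 34.1 ± 1.37 for Angptl4 and 32.1 ± 15.4 for Lpl, followed by 6.71 ± 0.52 for Gpihbp1, 5.76 ± 0.78 for Lipg and 1.60 ± 1.03 for Vldlr. There, Apoa5 and Apoc2, Angptl4 and Lpl, and Gpihbp1 and Lipg were pairs within their SDs. In tumors the order was different at the top, with Apoc2 at 774 ± 408 CPM per kb, Apoa5 at 119 ± 81.5 and Lpl at 76.2 ± 8.60.

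**Figure D1:**
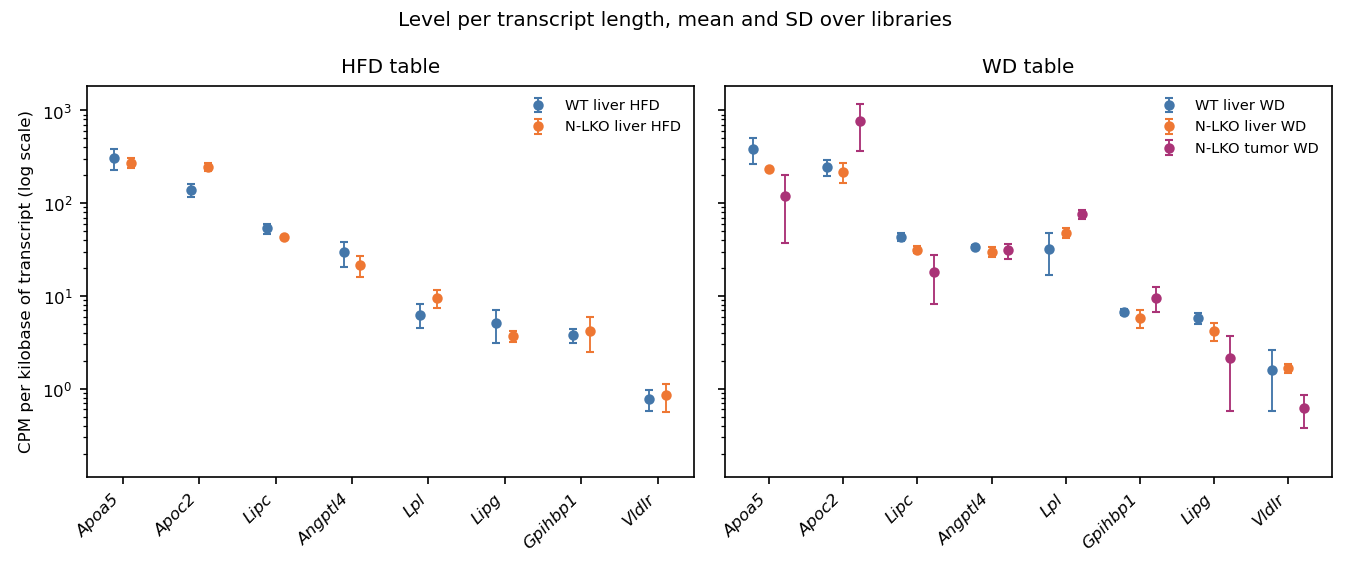
Mean level of the 8 genes in CPM per kilobase of transcript (log axis), with the SD over libraries as bars, for 2 HFD groups (left, n = 4 each) and 3 WD groups (right, n = 3 each); genes are ordered by their WT level. Apoa5 is highest in WT liver of both tables, and Apoc2, at 774 CPM per kb, is highest in tumors.

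**Figure D2:**
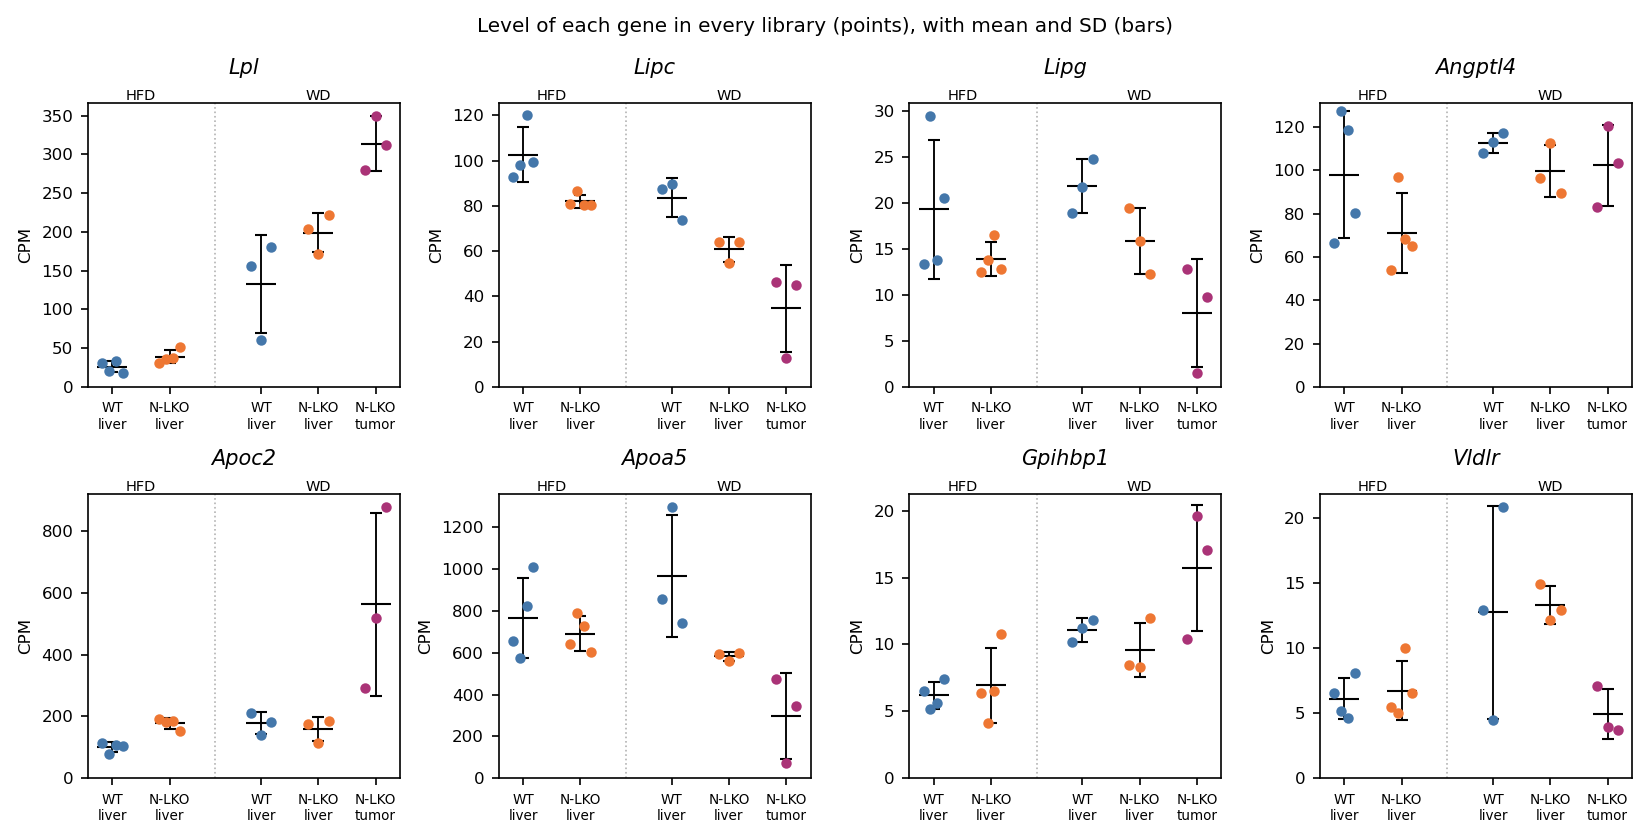
CPM of each gene in each of the 17 libraries (points), with the group mean and SD (bars); WT liver is blue, N-LKO liver orange and N-LKO tumor purple, and a dotted line parts the HFD and WD tables. Lpl in tumors (279 to 350 CPM) lies above every liver, and Lipc, Lipg and Apoa5 share their lowest value in tumor replicate 2.

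N-LKO liver was compared with WT liver under HFD to ask how the group differed by genotype. Loss of NgBR and the presence of tumors in N-LKO livers cannot be told apart in this comparison. Apoc2, the obligate activator of lipoprotein lipase, rose 1.77-fold, and it was the 1 member of 8 to pass the test (edgeR's quasi-likelihood test, Benjamini-Hochberg adjusted p under 0.05 over all genes). Over all 13460 genes tested, 4.84% passed in either direction and 2.56% as higher. Lpl, Lipc, Lipg, Angptl4, Apoa5, Gpihbp1 and Vldlr did not pass.

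Apoc2 stood at 115, 76.97, 107 and 104.1 CPM in WT and at 191, 183, 186.6 and 153 CPM in N-LKO. The groups did not overlap, with the lowest N-LKO liver well above the highest WT liver. Its log2 fold change was 0.82 (SE 0.12, 95% interval 0.55 to 1.09, adjusted p = 0.00833). Over the genes with a known length, log2 fold changes in this comparison fell with transcript length (Spearman rho -0.37, a description across genes), and the Apoc2 transcript is short, at 727 bases. With an offset for length and GC content its log2 fold change was 0.61 (adjusted p = 0.0336). Apoc2 also overlaps Gm44805, a gene model on the same strand, which took 2.39% to 11.4% of the summed counts of both. With the counts of both added, the log2 fold change was 0.76 (adjusted p = 0.00857).

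The 3 genes whose log2 CPM followed Apoc2 most closely over the 8 HFD livers were Dynlrb1 (Pearson's r 0.979), Ppig (0.978) and Fabp2 (0.978), out of 9436 genes compared. These r values are descriptive, and the livers fall into 2 genotypes.

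Lpl, the lipase itself, gave 31.3, 20.9, 33.3 and 18.3 CPM in WT and 31.3, 35.6, 37.7 and 51.1 CPM in N-LKO. The groups overlapped, although N-LKO replicate 4 was above all others. The log2 fold change was 0.59 (SE 0.20, 95% interval 0.15 to 1.02, adjusted p = 0.107). Recruited macrophages are a known source of Lpl, and their 8 markers summed to 28.97 to 65.3 CPM in WT and to 69.2 to 123 CPM in N-LKO. Spp1, which bile duct and tumor cells can also make, carried that separation, at 14.3 to 33.7 CPM in WT and 45.1 to 88.8 CPM in N-LKO. The other 7 markers overlapped, at 14.4 to 31.6 CPM against 24.1 to 33.97 CPM. Of the 8 markers 7 were tested and 1, Spp1, rose (log2 fold change 1.55, adjusted p = 0.0139). The 7 Kupffer cell markers summed to 123 to 183 CPM in WT and 61.8 to 126.3 CPM in N-LKO, and 4 fell: Clec4f, Marco, Timd4 and Vsig4. In whole tissue, a change in the number of cells and a change in RNA per cell cannot be told apart, and the part of these cells in the Lpl values was not tested.

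Lipc, the hepatocyte's own lipase, which acts on remnants and high density lipoprotein, gave 92.5, 97.9, 120 and 99.4 CPM in WT and 80.9, 86.4, 80.2 and 80.6 CPM in N-LKO. All 4 N-LKO livers were below all 4 WT livers. Its log2 fold change was -0.32 (SE 0.09, 95% interval -0.52 to -0.13, adjusted p = 0.0635). DESeq2 called it (adjusted p = 0.0326), which with Apoc2 made 2 members beside 7.42% of all genes, and by edgeR it passed without WT replicate 1 (-0.37, adjusted p = 0.0489). The libraries of the 2 genotypes did not overlap for 2 of 8 members, Apoc2 and Lipc, beside 14.8% of all genes. Lipg, the endothelial lipase, lay between 13.3 and 29.5 CPM in WT and between 12.5 and 16.5 CPM in N-LKO (log2 fold change -0.48, adjusted p = 0.23), and the groups overlapped.

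The other cofactors and the inhibitor overlapped between genotypes. Angptl4, which unfolds lipoprotein lipase and is induced by fasting and fatty acids, gave 66.2, 127, 119 and 80.2 CPM in WT and 53.9, 97.1, 68.4 and 64.98 CPM in N-LKO (log2 fold change -0.46, SE 0.22, 95% interval -0.93 to 0.01, adjusted p = 0.228). Apoa5, a promoter of triglyceride clearance, lay between 575 and 1009 CPM in WT and between 602 and 789 CPM in N-LKO (log2 fold change -0.15, adjusted p = 0.624). Gpihbp1, the capillary protein that carries and anchors the lipase, stayed at 4.11 to 10.8 CPM over all 8 livers (log2 fold change 0.17, adjusted p = 0.745). Vldlr, which binds triglyceride-rich particles for uptake, stayed at 4.66 to 9.99 CPM (log2 fold change 0.12, adjusted p = 0.803). The median log2 fold change was -0.01 over the 8 members and -0.01 over all genes.

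Under WD, none of the 8 members passed between N-LKO and WT liver by edgeR's quasi-likelihood test, fitted with the tumors. Neither did any of 17829 genes (0% called). Nus1, the deleted gene, was thus not called (log2 fold change -1.02, adjusted p = 0.151), although its groups did not overlap. An unadjusted p under 0.05 was found for 2212 genes, of which 0 were members. DESeq2 called 99 genes, 0.555%, and 0 members. Fitted on the 2 liver groups alone, edgeR called 6 genes, 0.0356%, and 0 members. The fold changes of the members lay above 0 for 2 and below 0 for 6, with a median log2 value of -0.19 against 0.01 over all genes.

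Lpl gave 156, 60.4 and 180 CPM in WT under WD and 204, 171 and 221 CPM in N-LKO. The groups overlapped, and WT replicate 2 was far below every other library. The log2 fold change was 0.59 (SE 0.33, 95% interval -0.14 to 1.31, adjusted p = 0.471). Without WT replicate 2, the library low in recruited macrophage markers, it was 0.24 (adjusted p = 0.915). Vldlr was lowest in that liver too: 13.0, 4.47 and 20.9 CPM in WT against 15.0, 12.1 and 12.9 CPM in N-LKO (log2 fold change 0.06, 95% interval -0.92 to 1.04, adjusted p = 0.962). Without that liver the sign for Vldlr turned, to -0.35 (adjusted p = 0.937).

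Lipc and Apoa5 were lower in each of the 3 N-LKO livers than in each WT liver, 2 of 8 members. Over all genes the groups did not overlap for 28%, and 13.6% were lower throughout. Lipc gave 87.4, 89.7 and 73.6 CPM in WT and 64.0, 54.5 and 64.0 CPM in N-LKO (log2 fold change -0.46, SE 0.37, adjusted p = 0.603). Apoa5 gave 859, 1297 and 742 CPM in WT and 593, 559 and 599 CPM in N-LKO (log2 fold change -0.73, SE 0.50, adjusted p = 0.547). These SEs come from the fit that includes the tumors. Fitted on the 2 liver groups alone, the adjusted p was 0.158 for Lipc and 0.165 for Apoa5. Neither difference passed in either fit.

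Under WD, Apoc2 gave 212, 140 and 182 CPM in WT and 177, 115 and 186.6 CPM in N-LKO. The groups overlapped (log2 fold change -0.16, SE 0.35, 95% interval -0.95 to 0.63, adjusted p = 0.863). The remaining members, Lipg, Angptl4 and Gpihbp1, had log2 fold changes of -0.46, -0.18 and -0.21 with overlapping groups and adjusted p from 0.638 to 0.716.

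An interaction term, fitted on the 14 livers of both tables, asked if loss of NgBR acted differently under WD than under HFD. Diet and table cannot be told apart in this term. None of the 8 members passed (1.62% of 15850 genes did), and 1 member, Apoc2, had an unadjusted p under 0.05. For Apoc2 the effect under WD minus that under HFD was -0.96 on the log2 scale (SE 0.25, 95% interval -1.50 to -0.43, adjusted p = 0.0623 by edgeR). The Apoc2 effects under the separate diets, 0.82 and -0.16, are therefore not shown to differ at the adjusted threshold. DESeq2 called this 1 member (adjusted p = 0.0136) beside 5.82% of all genes, and with the offset for length and GC content the difference was -0.61 (adjusted p = 0.268). For Lpl the difference was 0.01 (95% interval -0.89 to 0.91) and for Apoa5 it was -0.55 (95% interval -1.13 to 0.03).

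**Figure D3:**
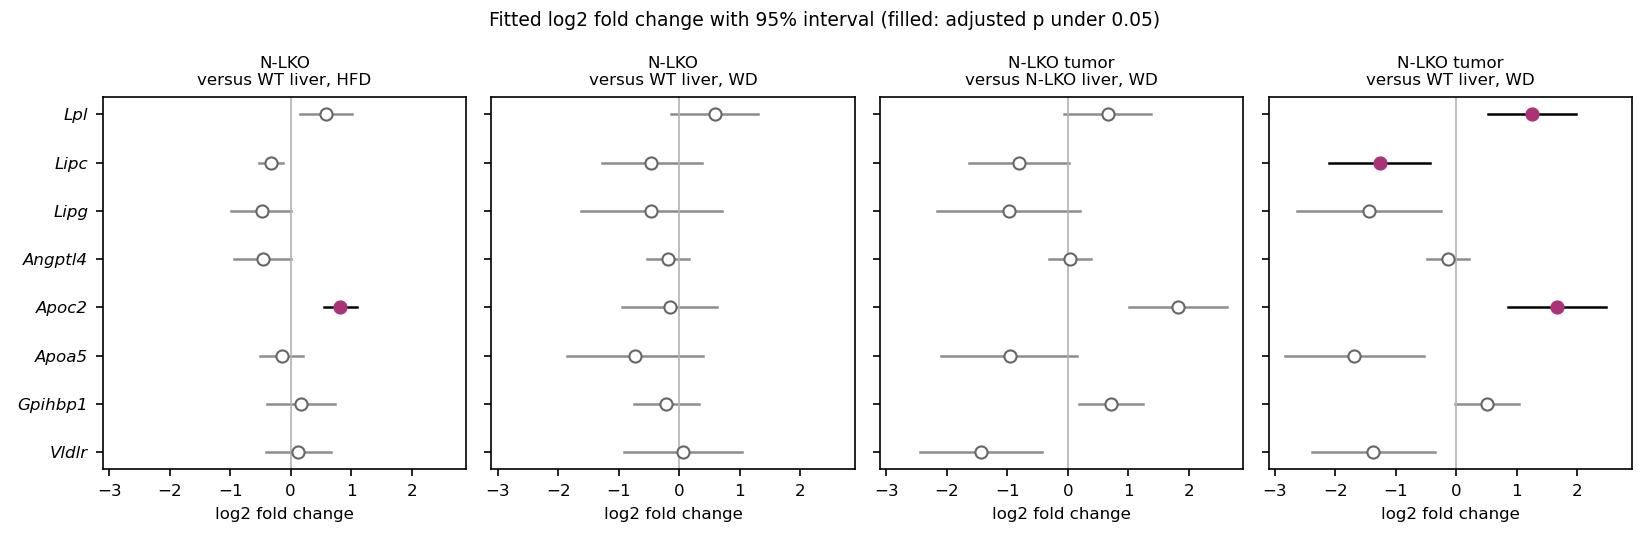
Log2 fold change of each gene (points) with its 95% interval (lines) in 4 comparisons; filled points have an edgeR adjusted p under 0.05 over all genes. Apoc2 passed under HFD (0.82), and Lpl (1.25), Lipc (-1.27) and Apoc2 (1.66) passed between tumor and WT liver under WD.

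Tumors were compared with both WD liver groups, which share the tumor libraries, so the comparisons are not independent. Against WT liver, Lpl was 2.37-fold and Apoc2 3.16-fold higher and Lipc 2.41-fold lower in tumor, and these 3 of 8 members passed (edgeR, all 3 WD groups fitted together). Fitted on tumor and WT liver alone, 0 of 8 passed, with adjusted p of 0.0856 for Lpl, 0.0546 for Apoc2 and 0.102 for Lipc, beside 4.12% of all genes. In the joint fit 14.9% of all 17829 genes passed, 8.08% as higher and 6.8% as lower. Against N-LKO liver 0 of 8 members passed by edgeR beside 0.499% of all genes, 3 members had an unadjusted p under 0.05, and DESeq2 called 2, Apoc2 and Vldlr, beside 5.73% of all genes. DESeq2 called 6 members against WT liver, beside 20.4% of all genes. Leaving out tumor replicate 1 raised the share of all genes that passed by edgeR to 20.9% against WT liver and 12% against N-LKO liver.

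Lpl gave 279, 350 and 312 CPM in the 3 tumors. Each tumor was above each of the 6 livers, whose highest value was 221 CPM. The tumors exceeded WT liver by a log2 fold change of 1.25 (SE 0.33, 95% interval 0.52 to 1.98, adjusted p = 0.0332). Against N-LKO liver it was 0.66 (SE 0.33, 95% interval -0.06 to 1.38, adjusted p = 0.315). The difference from WT liver was 0.90 (adjusted p = 0.0379) without WT replicate 2. It missed the threshold in 5 of the 9 fits made with a library omitted (N-LKO liver replicates 1 and 3, tumor replicates 2 and 3, WT replicate 1), with adjusted p from 0.054 to 0.0819. Muscle also makes Lpl, and without tumor replicate 2, the tumor with muscle markers, the value was 1.13 (adjusted p = 0.0819).

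The recruited macrophage markers were read beside Lpl in these libraries. Their sum lay between 58.7 and 243 CPM in WT, between 298 and 353 CPM in N-LKO and between 383 and 718 CPM in tumor. Spp1 and Cd9 carried the step from N-LKO liver to tumor. The other 6 summed to 34.7 to 166 CPM in WT, 173 to 198 CPM in N-LKO and 156 to 282 CPM in tumor, so N-LKO and tumor overlapped, and Trem2 averaged 10.4 CPM in N-LKO and 7.50 CPM in tumor. Of the 8 markers, Cd9 (log2 fold change 2.00), Itgax (1.68) and Spp1 (2.88) rose in tumor against WT liver and none fell. The order of single libraries was not the same, since tumor replicate 2 had the most Lpl of the tumors, 350 CPM, and the least of these markers, 383 CPM. The 7 Kupffer cell markers went the other way, from 488 to 714 CPM in WT livers to 159 to 432 CPM in tumors, with Cd5l, Marco and Timd4 lower. Adipoq, Plin1, Lep and Retn, which define fat cells, were at most 0.31 CPM or not listed. Cfd, the remaining gene of that list of 5, stood at 3.70, 24.5 and 18.3 CPM in WT and at most 1.36 CPM in tumor, where it fell (log2 fold change -4.96, adjusted p = 0.0124). The part of macrophages in the Lpl values was not tested.

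**Figure D4:**
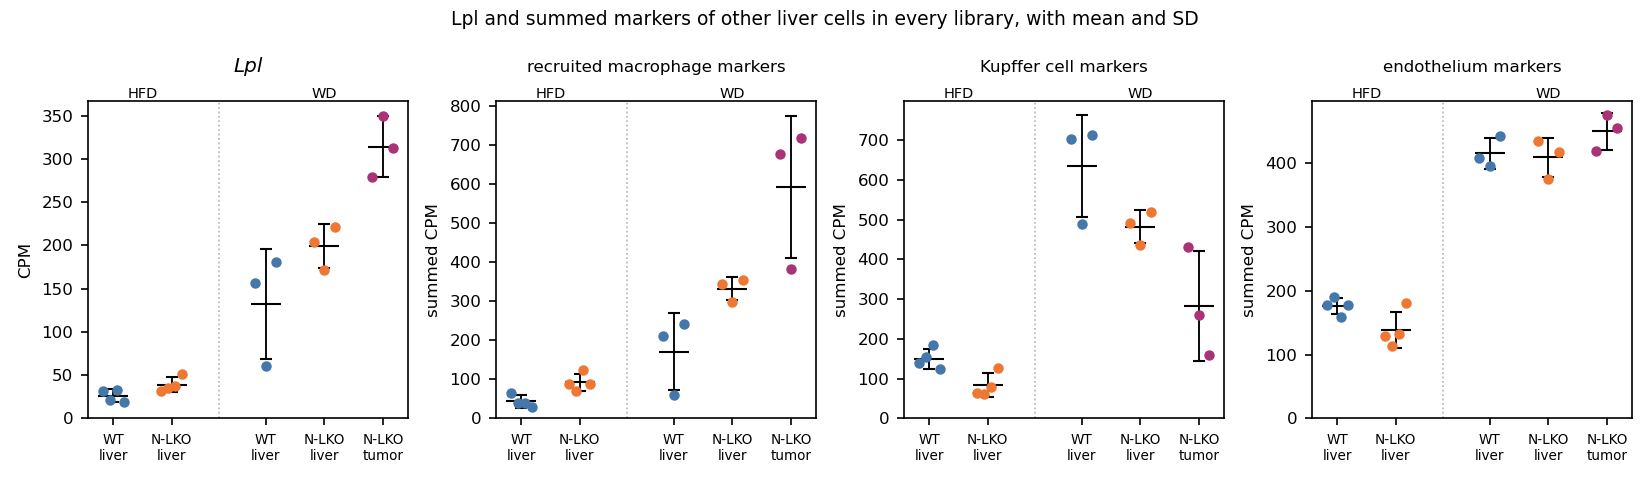
Lpl (CPM) and the summed CPM of 8 recruited macrophage, 7 Kupffer cell and 10 endothelial markers in each library (points), with mean and SD. Lpl and the recruited macrophage markers are lowest among WD libraries in WT replicate 2 (60.4 and 58.7 CPM), and both are highest in tumors, the marker sum through Spp1 and Cd9.

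Over the 9 WD libraries the genes most like Lpl were Slc44a3 (Pearson's r 0.990), Rnf213 (0.984) and Itgax (0.984), of 10809 compared. Itgax, which encodes CD11c, is also on the recruited macrophage list. Its mean was 6.86 CPM in WT, 13.99 CPM in N-LKO and 22.01 CPM in tumor.

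Apoc2 gave 290, 519 and 878 CPM in tumors, and all 3 were above every liver. Replicate 3 was highest, and the SD over the tumors was 296 CPM around a mean of 562 CPM. The log2 fold change was 1.66 against WT liver (SE 0.36, 95% interval 0.85 to 2.47, adjusted p = 0.0189) and 1.82 against N-LKO liver (SE 0.36, adjusted p = 0.0656). Against WT liver it missed the threshold without WT replicate 2 (1.51, adjusted p = 0.0777) and without WT replicate 3 (1.67, adjusted p = 0.052). Against N-LKO liver it passed without tumor replicate 1 (2.13, adjusted p = 0.00299), beside 12% of all genes. Gm44805 took 0.97% to 6.28% of the summed counts of both genes here, and with both added the value against WT liver was 1.60 (adjusted p = 0.0207). The genes most like Apoc2 over the 9 libraries were Dhcr7 (0.989), an enzyme of cholesterol synthesis, Umps (0.984) and Ggct (0.978).

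Lipc gave 46.1, 12.7 and 45.1 CPM in tumors, below each of the 6 livers. Replicate 2, the tumor with muscle markers, was far below the others. Against WT liver the log2 fold change was -1.27 (SE 0.38, 95% interval -2.11 to -0.43, adjusted p = 0.0479), and against N-LKO liver it was -0.81 (95% interval -1.64 to 0.02, adjusted p = 0.282). Without tumor replicate 2 the value against WT liver was -0.91 (adjusted p = 0.014). The adjusted p was above the threshold in 7 of the 9 fits that omitted a library, all but those without tumor replicates 1 and 2, and reached 0.131 without WT replicate 2. Like Lipc over the 9 libraries were Pccb (0.992), Ugt2a3 (0.991) and Thtpa (0.989).

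Apoa5 and Lipg were also lowest in tumor replicate 2. Apoa5 gave 476, 74.9 and 347 CPM in tumors, below all livers (log2 fold change against WT liver -1.69, SE 0.51, 95% interval -2.83 to -0.54, adjusted p = 0.0522). Lipg gave 12.9, 1.51 and 9.73 CPM in tumors, against 18.9 to 24.8 CPM in WT and 12.2 to 19.4 CPM in N-LKO (log2 fold change against WT liver -1.45, SE 0.54, adjusted p = 0.0946). Neither passed with all libraries. Without tumor replicate 2 both passed against WT liver with smaller folds, -1.26 for Apoa5 (adjusted p = 0.0253) and -0.98 for Lipg (adjusted p = 0.0346). Without tumor replicate 1 both passed as well, at -2.20 (adjusted p = 0.0227) and -1.97 (adjusted p = 0.04), beside 20.9% of all genes.

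Vldlr gave 7.13, 3.95 and 3.69 CPM in tumors. Each was below each N-LKO liver, but WT replicate 2, at 4.47 CPM, lay within the tumor range. For Vldlr the log2 fold change was -1.44 against N-LKO liver (SE 0.46, 95% interval -2.45 to -0.42, adjusted p = 0.147) and -1.38 against WT liver (SE 0.46, adjusted p = 0.0692). Without WT replicate 2 the latter was -1.78 and passed (adjusted p = 0.0329), beside 3.07% of all genes. It also passed without tumor replicate 1 (-1.74, adjusted p = 0.0399), beside 20.9% of all genes.

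Gpihbp1 gave 10.4, 19.6 and 17.1 CPM in tumors, against 10.2 to 11.9 CPM in WT and 8.34 to 12.0 CPM in N-LKO. The groups overlapped through tumor replicate 1 (log2 fold change 0.50 against WT liver, adjusted p = 0.172, and 0.71 against N-LKO liver, 95% interval 0.19 to 1.24, adjusted p = 0.162). Without that tumor both comparisons passed, at 0.72 (adjusted p = 0.0247) and 0.94 (adjusted p = 0.0139), beside 20.9% and 12% of all genes. Gpihbp1 is an endothelial gene, and 10 endothelial markers summed to 396 to 443 CPM in WT livers and 419 to 476 CPM in tumors. Among them Cd34 (log2 fold change 2.96), Pecam1 (1.08) and Cdh5 (0.71) rose and Clec4g, a sinusoidal marker, fell (-1.39).

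Angptl4 was the member with the smallest difference in either tumor comparison. It gave 83.3, 120 and 103 CPM in tumor, 108, 113 and 117 CPM in WT and 96.6, 113 and 89.5 CPM in N-LKO, and all groups overlapped. The log2 fold change was -0.14 against WT liver (95% interval -0.49 to 0.21) and 0.04 against N-LKO liver (95% interval -0.31 to 0.39). The groups of libraries did not overlap for 5 of 8 members in each comparison, beside 34.1% of all genes against WT liver and 23.1% against N-LKO liver. The members' median log2 fold change was -0.70 against WT liver and -0.39 against N-LKO liver, and that of all genes was 0.04 and 0.02.

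Other genes of the pathway were read from 4 lists. Calls in tumor against WT liver come from the joint fit of the 3 WD groups, where 14.9% of all genes passed. The share was 4.12% with only the groups compared and 3.07% without WT replicate 2. List calls under those 2 fits are not given here. The first list held 13 further activators, inhibitors and processing factors of the lipases. None passed under HFD or WD between genotypes or between tumor and N-LKO liver, and in tumor against WT liver 1 fell, Apoe (log2 fold change -0.84, adjusted p = 0.0248), the ligand through which remnants are cleared. The list's median was 0.04 under HFD, -0.43 between genotypes under WD and -0.33 in tumor against WT liver. Angptl8, a liver-made regulator of lipoprotein lipase, had a log2 fold change of 0.08 under HFD and of 0.05 in tumor against WT liver. In the interaction 1 of the 13 passed, Apoc3, an inhibitor of triglyceride clearance (-0.93, adjusted p = 0.0332). Its separate genotype effects were 0.37 under HFD (adjusted p = 0.0941) and -0.58 under WD (adjusted p = 0.459). Interaction values rose with transcript length over all genes (Spearman rho 0.34), and the Apoc3 transcript is short (632.1 CPM, or 891.5 CPM per kb, in WT under HFD). The interaction called 257 genes in the main fit, 46 with the length and GC offset and 0 with the replicate block, so the Apoc3 call depends on the fit.

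Of 15 lipoprotein receptors and uptake factors, 14 were tested under HFD. Lsr, the lipolysis-stimulated receptor, rose from 62.4 ± 6.80 CPM to 89.4 ± 16.1 CPM (SD, n = 4; log2 fold change 0.52, adjusted p = 0.0407), and Stab2, a sinusoidal scavenger receptor, fell from 28.4 ± 3.13 to 18.5 ± 4.02 CPM (-0.61, adjusted p = 0.0355). In tumor against WT liver Sorl1 rose (log2 fold change 1.42, adjusted p = 0.0119) and Lrp1, the remnant receptor, fell (-0.83, adjusted p = 0.0337). Scarb1, the receptor for high density lipoprotein, and Lsr had values of 0.92 and 1.07 in the same comparison and did not pass.

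None of 16 transcription factors of the pathway passed between genotypes on either diet. In tumor against WT liver 6 fell and none rose, beside 6.8% of all genes called lower. They were Rxra (log2 fold change -1.20), Klf15 (-0.85), Ppara (-0.71), Creb3l3 (-0.57), Nr1h3 (-0.56) and Nr1h4 (-0.56). Creb3l3 encodes a liver factor that drives Apoa5 and Apoc2 among other genes, and Rxra is the shared partner of the PPAR, LXR and FXR receptors. The list's median was -0.12 in tumor against WT liver and -0.29 between genotypes under WD. In tumor against N-LKO liver it was -0.03, and none passed.

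Of 18 other PPAR targets, none passed between genotypes or between tumor and N-LKO liver. In tumor against WT liver Cyp4a14 (log2 fold change -3.45), Cyp4a10 (-1.42) and Cpt1a (-0.72), enzymes of fatty acid oxidation, fell, and Fabp4 rose (3.85, adjusted p = 0.0152). Fabp4, which fat cells, macrophages and endothelium make, was at 23.7 ± 15.5 CPM in WT livers, 50.8 ± 11.9 in N-LKO livers and 342 ± 251 in tumors (SD, n = 3). The tumors gave 54.8, 451 and 519 CPM, and replicate 1 lay within the N-LKO range of 37.7 to 60.8 CPM. Angptl4 is a PPAR target too, and its groups overlapped in every comparison.

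**Figure D5:**
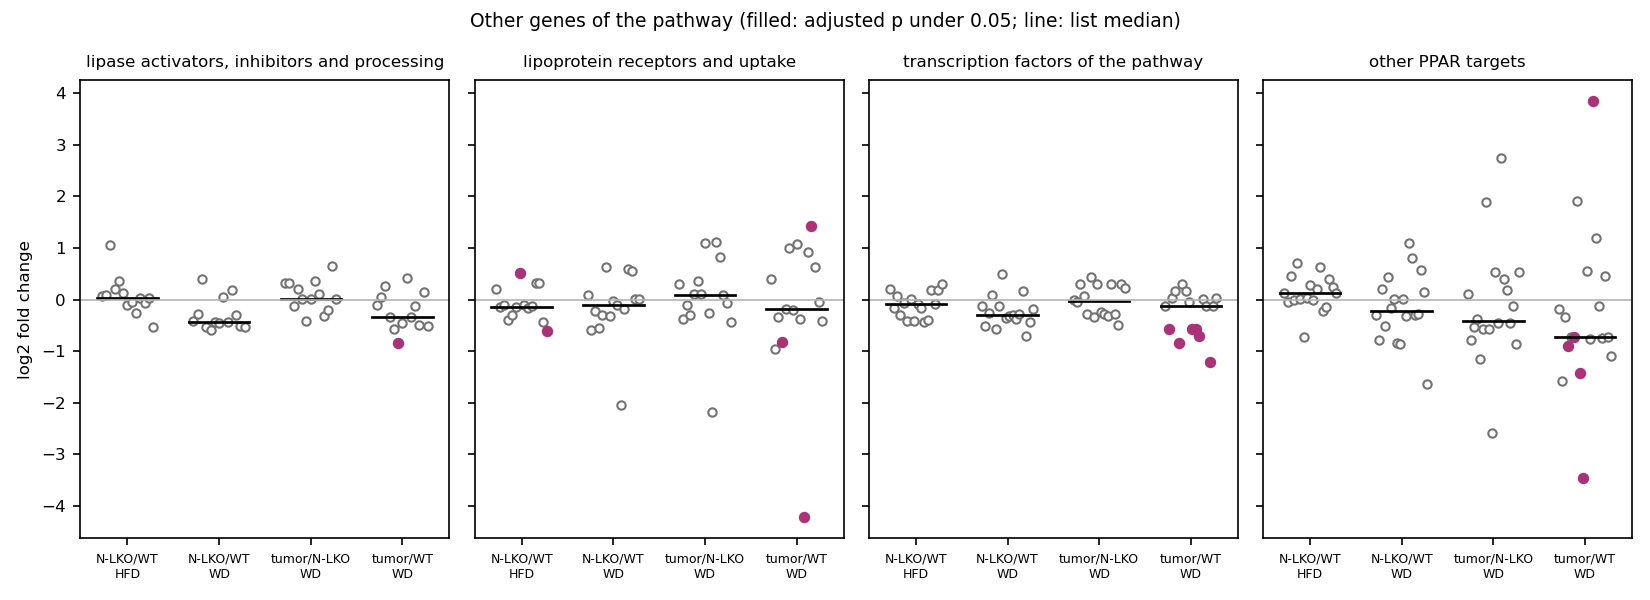
Log2 fold change of each tested gene (circles) of 4 pathway lists in 4 comparisons; filled circles have an edgeR adjusted p under 0.05 over all genes, and lines are list medians. Filled circles are few except in tumor against WT liver, where 6 of 16 transcription factors fell beside 6.8% of all genes called lower.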

How the data were processed

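Ribosomal RNA was depleted and single-end reads were sequenced on a HiSeq instrument. The study's methods name TopHat2 as the aligner, and the submitters' processing notes list STAR, Partek and mm9. Gene positions in the files match GENCODE M21 on GRCm38 in start and end for 96.8% of HFD and 96.4% of WD genes. As deposited, the authors' values are gene-level estimated counts from the Partek expectation-maximization step, neither scaled nor pooled. Of the values, 69.8% (HFD) and 66.6% (WD) were whole within 1e-06. Reads of overlapping genes, such as Apoc2 with Gm44805 and Apoa5 with antisense Gm47544, were divided by the authors' model. Strand use was not stated.

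Groups and replicate numbers came from the titles. After rounding, the quasi-likelihood test of edgeR 4.0.16 (R 4.3.3) was applied (TMM, filterByExpr, Benjamini-Hochberg). All 8 members passed the filter. HFD libraries were fitted alone, the 3 WD groups together, and the interaction over 14 livers. CPM uses TMM-scaled totals. SEs are the log2 fold change divided by the square root of F. The common biological coefficient of variation was 0.149 (HFD), 0.243 (WD) and 0.163 (14 livers). On simulated data 93% of genes changed by log2 2 were recovered under HFD and 75% between WD genotypes. For log2 1 these were 73% and 25%.

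All 8 members are named in every comparison. List genes past the threshold may be named. The 3 most alike genes (mean CPM of at least 5) are given for members that passed. Members and lists were chosen with earlier results of these data known. Alternatives were DESeq2 1.42.0 (test and size factors), limma-voom 3.58.1, no filter, a replicate block, a length and GC offset, only the groups compared, and leaving out each library. Adding Gm44805 to Apoc2 was chosen after seeing the data. Some genes of the pathway lists are not reported here by name.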

Additional observations from a re-analysis of the deposited data

Results flagged for a closer look

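Among 16 sets of 4 HFD libraries (8 genes in 2 groups), 1 held a library far from the rest. Lipc in N-LKO liver replicate 2 was 86.4 CPM, against 80.2 to 80.9 CPM in the other N-LKO livers, and its gap to the nearest was 0.899 of the group's range. Chance gives such a gap in about 1 in 20 sets. That liver was still below each WT liver, whose lowest Lipc value was 92.5 CPM.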

How the results depend on the processing

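Of 696 pairings of a member's result with an alternative, 626 kept direction and side of the threshold, 17 lost the call, 21 gained it and 32 changed sign. None of the sign changes touched a result called with all libraries. Under HFD, Apoc2 passed all 15 alternatives (log2 fold change 0.61 to 0.89). The count of members called under HFD went from 1 to 2 with the DESeq2 test and with the replicate block, and was 1 to 2 over the fits leaving out 1 library. Between genotypes under WD it was 0 throughout. Against N-LKO liver, tumors went from 0 members to 2 with the DESeq2 test. Leaving out 1 library gave 0 to 2 (2 without tumor replicate 1, beside 12% of all genes). Against WT liver, 3 became 6 with the DESeq2 test and 0 with only the groups compared, where fewer libraries inform the spread. Leaving out 1 library gave 1 to 7 there (7 without tumor replicate 1, beside 20.9% of all genes). The interaction went from 0 to 1 with the DESeq2 test. Where no construction is named, the cause was not tested.

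The results that changed sign lay within 0.17 of 0 with all libraries. With the length and GC offset Vldlr between genotypes under WD was -0.05, and in the interaction Lipg was -0.04 and Lpl -0.19. With limma-voom the interaction was -0.03 for Lipg and 0.23 for Vldlr, and with the replicate block -0.03 and 0.17. Leaving out 1 library, log2 fold changes ran from -0.27 to 0.01 for Apoa5, -0.14 to 0.36 for Gpihbp1 and -0.10 to 0.29 for Vldlr under HFD, from -0.31 to 0.03 for Apoc2 and -0.35 to 0.61 for Vldlr between genotypes under WD, and from -0.10 to 0.17 for Angptl4 in tumor against N-LKO liver. In the interaction they ran from -0.24 to 0.19 for Lipg, -0.35 to 0.31 for Lpl and -0.47 to 0.52 for Vldlr.

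Same-numbered libraries of different groups deviated with correlations of -0.076 to 0.107 under HFD and -0.124 to 0.101 under WD. Replicate numbers need not follow animals, so these values cannot show whether libraries share a mouse. The library names carry other numbers. By these, tumor replicate 1 goes with N-LKO liver replicate 1 (0.101) and tumor replicate 2 with N-LKO liver replicate 3 (0.079). The other tumor and N-LKO pairs ran from -0.133 to 0.059. The main fits were unpaired. With the replicate block, Angptl4 passed under HFD (-0.45, adjusted p = 0.0478). With 3 libraries a group, most changes of log2 1 would be missed at this spread, so members not called under WD are not shown to be equal.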
